A study of Caenorhabditis elegans with 12 samples.

Results

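The data describe how larvae without functional metallothioneins responded to cadmium (Cd). Whole L4 larvae of the nematode Caenorhabditis elegans were profiled on Affymetrix expression arrays, and 6 of the 12 arrays of the series were chosen by their titles. Of these, 3 arrays came from MT KO larvae, genotype mtl-1,mtl-2(zs1), that had been kept with 30 µM Cd from hatching to L4, and 3 from MT KO larvae kept without Cd. The 6 wild-type N2 (Bristol) arrays, 3 with and 3 without Cd, served to ask whether a response differed between the strains. Both treatments and both strains shared growth at 20 °C on NGM plates with Escherichia coli OP50 and a synchronous start by bleaching. The labels give the MT KO strain as a single allele designation and do not say if a group's 3 arrays stem from separate cultures. All p-values below therefore describe spread between arrays, part or all of which may be technical. Every probe set other than the manufacturer's controls was compared, 22548 in all, and 17118 genes had a probe set with exactly 1 symbol. Values are log2 GCRMA values, a background-corrected and normalised scale on which a difference of 1 is a 2-fold change.

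Metallothioneins are small cysteine-rich proteins that bind Cd, zinc and copper. C. elegans has a pair of them, MTL-1 and MTL-2, made mainly in the intestine and, for MTL-1, in the pharynx. The worm has other ways to handle the metal, among them phytochelatins made from glutathione by PCS-1, the transporter HMT-1, glutathione S-transferases and the cadmium-responsive CDR proteins. L4 is the stage at which the hermaphrodite germ line makes sperm, before it turns to oocytes, and at which the adult cuticle is laid down.

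The probe set of mtl-1 read 3.83, 3.96 and 4.26 in MT KO with Cd, against 3.73, 3.43 and 3.56 in MT KO without Cd, and the difference did not pass the test (log2 difference 0.44, SE 0.21, limma adjusted p = 0.19). In wild type the same probe set averaged 9.85 ± 0.38 with Cd and 4.75 ± 0.32 without (SD, n = 3). The 3 probe sets of mtl-2 differed by 0.12, −0.30 and −0.02 between MT KO with and without Cd, with limma adjusted p of 0.654, 0.391 and 0.981. Their wild-type means were 11.3, 11.4 and 9.43 with Cd and 11.5, 11.5 and 9.85 without, each far above the MT KO arrays. Where these probe sets lie relative to the deleted sequence is not known here. Both groups of MT KO lay for mtl-1 near or below 4.03, the median of all values, a level at which a value may be background.

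Arrays of a group resembled each other more than they resembled the other group. Over all probe sets the correlation ran from 0.9953 to 0.9966 among the arrays with Cd, from 0.9935 to 0.9968 among those without and from 0.9651 to 0.9758 between them. Markers of the tissues of a whole larva were above the median of all values in both groups for 16 of 17 body wall muscle genes, 11 of 12 intestine genes, 8 of 10 pharynx genes and 13 of 21 neuron genes. Over all genes the same held for 8159 of 17118. The 3′ signal minus the 5′ signal, averaged over the GAPDH and actin controls and taken as a sign of RNA quality, was 0.917 ± 0.167 in MT KO with Cd and 1.38 ± 0.103 in MT KO without Cd (log2, SD, n = 3). In wild type it was 1.13 ± 0.098 with Cd and 1.98 ± 0.776 without (SD, n = 3), where replicate 1 without Cd stood apart from the other arrays at 2.81 and also had the lowest array weight, 0.289 against 0.660 to 1.70. The MT KO groups did not overlap in it (exact permutation test, two-sided, p = 0.1, the smallest that 3 against 3 arrays allow). The part of this signal in the results was not tested beyond a fit that held it as a covariate, in which 4206 of the calls below were made again in the same direction. Without the wild-type array that stood apart the number of called probe sets was 5308.

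With Cd, 2595 probe sets were higher and 2472 lower in MT KO at a Benjamini-Hochberg adjusted p under 0.05 (limma, two-sided), together 5067 of 22548, or 22.5% (11.5% higher and 11% lower). Counted with 1 probe set per gene, 4106 of 17118 genes changed, or 24%, of which 2039 rose (11.9%) and 2067 fell (12.1%). The counts given below for lists of genes are to be read against these shares. More falls than rises were large. At least 4-fold falls were seen in 229 genes and at least 4-fold rises in 86, and at least 2-fold changes in 821 and 565 genes. The median over all genes was 0.02. Centring each array on its median raised the number of called probe sets to 6025 and the share of higher calls among them to 62.8%, against 51.2% as deposited, with a shift of the median by 0.06. The 3 arrays with Cd all lay above or all below the 3 without for 43.9% of genes and 43.2% of probe sets. Most list members named below are those with the smallest adjusted p, a choice that favours such separate groups. Calls were rare among faint genes. Of the 4280 genes with the lowest mean levels, 0.98% rose and 0.37% fell, and of the 4280 with the highest, 17% rose and 20.4% fell.

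**Figure D1:**
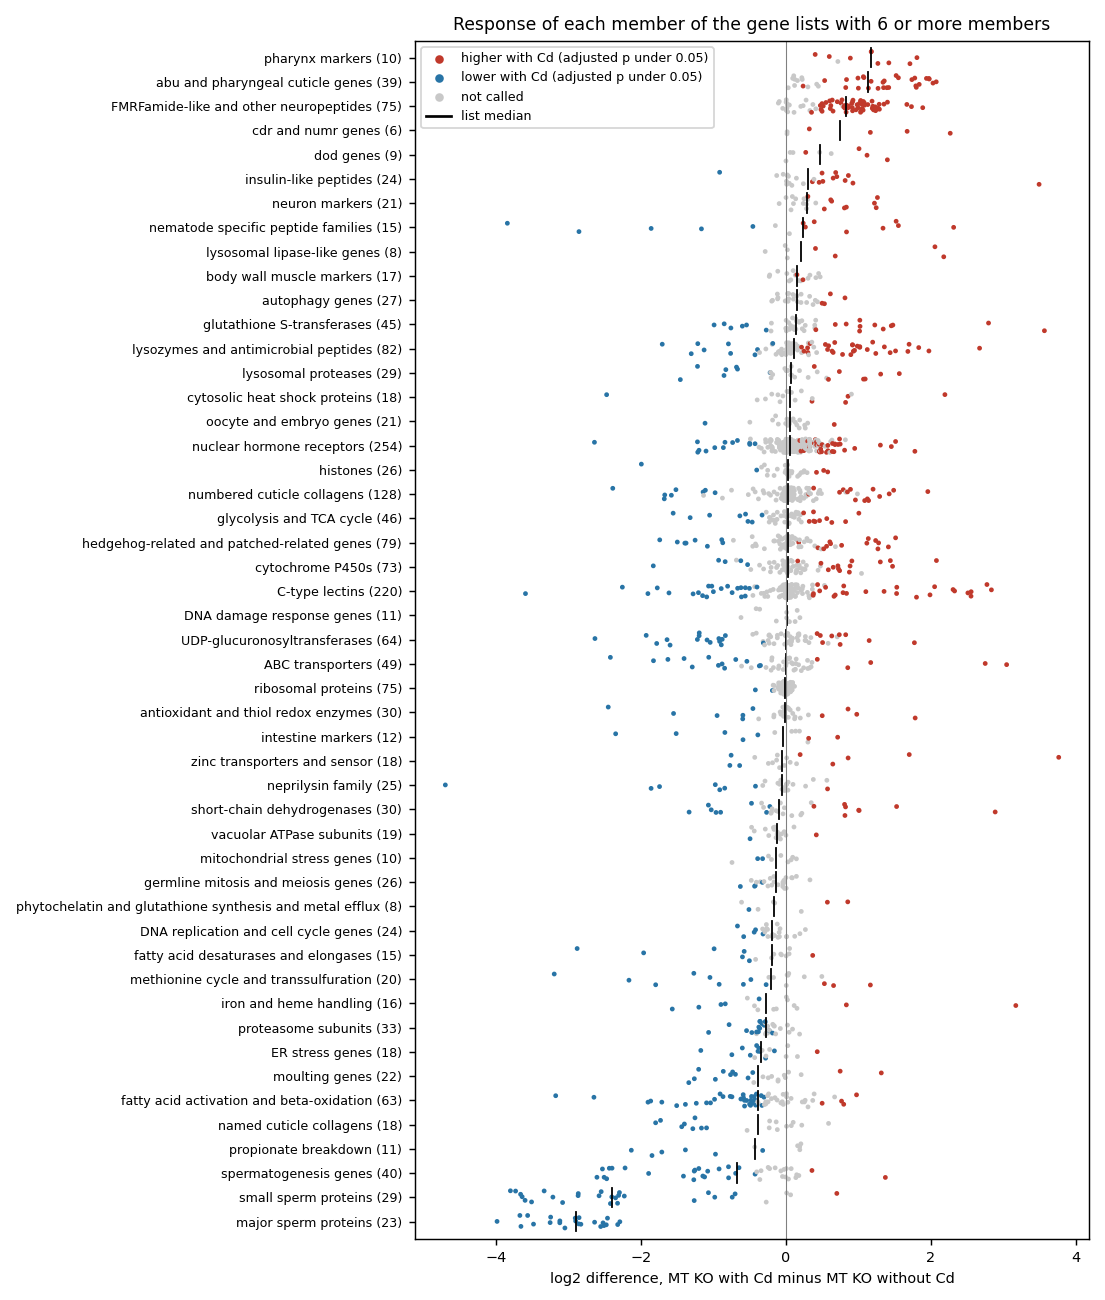
Each point is the log2 difference of 1 gene, MT KO with Cd minus MT KO without Cd, in lists of genes with 6 or more measured members (numbers of members in brackets, 3 arrays per group). Red points were higher and blue points lower at a limma adjusted p under 0.05, grey points were not called, and black bars are list medians. The 3 sperm lists lie at the bottom with medians of −2.90, −2.40 and −0.67, and the lists of pharynx markers, abu and pharyngeal cuticle genes and neuropeptides at the top.

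Of 6 cadmium-responsive cdr and numr genes measured, 4 rose and none fell, with a list median of 0.74, against 0.02 over all genes. The value of cdr-1, a gene named for its induction by Cd, was 9.90, 10.23 and 10.16 in MT KO with Cd, against 7.84, 7.88 and 7.77 in MT KO without Cd (log2 difference 2.27, SE 0.15, limma adjusted p = 1e-05). All 3 arrays with Cd lay above all 3 without, and the gene was already well above the array median without Cd. In wild type it averaged 10.51 with Cd and 3.73 without, so that the response was larger there, with a difference of responses of −4.51 (SE 0.21, limma adjusted p = 7.36e-05). The other members that rose were cdr-4 (1.67, adjusted p = 4.02e-05), cdr-2 (1.17, adjusted p = 9.67e-05) and cdr-6 (0.32, adjusted p = 0.00795). For cdr-6 the adjusted p was 0.0543 when only the 6 MT KO arrays were fitted. The genes cdr-3 and numr-2 both differed by 0.02 and did not pass (adjusted p = 0.778 and 0.897), and were named after their values were seen.

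The phytochelatin synthase gene pcs-1 read 6.96, 6.78 and 7.27 in MT KO with Cd, against 6.51, 6.47 and 6.31 in MT KO without Cd (log2 difference 0.57, SE 0.13, limma adjusted p = 0.0113). Its arrays with Cd were all above those without. The transporter gene hmt-1 read 6.81, 6.71 and 6.69 in MT KO with Cd, against 7.22, 7.22 and 7.30 in MT KO without Cd (log2 difference −0.51, SE 0.13, limma adjusted p = 0.0176), and it fell. That call was lost without MT KO with Cd replicate 2 or 3, or without MT KO without Cd replicate 3, at adjusted p of 0.0536 to 0.0578. Of the 8 genes of the list 2 rose and 1 fell, and 0 to 3 fell under the alternatives, 3 of them without wild type without Cd replicate 1. The second to rise was the P-glycoprotein gene pgp-1 (0.85, adjusted p = 0.0299), a faint gene that was no longer called in 6 of the alternative fits. These included the fits without MT KO with Cd replicate 3 and without any 1 array of MT KO without Cd, with adjusted p up to 0.103. Glutathione synthetase, gss-1, differed by −0.38 without passing the test (adjusted p = 0.0505).

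Zinc and iron genes changed in both directions, and 2 of 3 copper genes fell. The zinc transporter gene zipt-2.3 had 6.75, 6.60 and 7.08 in MT KO with Cd, against 3.36, 2.81 and 2.97 in MT KO without Cd (log2 difference 3.76, SE 0.33, limma adjusted p = 4.44e-05). Without Cd it lay below the array median, so its 13.6-fold rise is against a level that may be background. Another gene of the same transporter family, zipt-7.1, rose by 1.70 (adjusted p = 1.63e-05), while zipt-1 fell by 0.64 (adjusted p = 0.00481) at 1 of its 2 probe sets. The vesicular zinc storage transporter gene cdf-2 fell, with 5.40, 5.50 and 5.82 in MT KO with Cd, against 6.51, 6.45 and 6.07 in MT KO without Cd (log2 difference −0.77, SE 0.16, limma adjusted p = 0.00658). In wild type cdf-2 rose (log2 difference 1.02, limma adjusted p = 0.00292), and the difference of responses was −1.79 (SE 0.23, limma adjusted p = 0.00268). The strains started from unlike levels, with means without Cd of 6.34 in MT KO and 5.15 in wild type. With Cd the means were 5.57 in MT KO and 6.17 in wild type. In all, 5 of 18 zinc genes rose and 3 fell, and without MT KO with Cd replicate 2 the count that rose was 3. Without wild type without Cd replicate 3 the count that fell was 5.

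The ferritin gene ftn-1 was among the 15 largest rises, with 9.30, 9.23 and 9.38 in MT KO with Cd, against 5.96, 6.31 and 6.11 in MT KO without Cd (log2 difference 3.17, SE 0.20, limma adjusted p = 7e-06). Ferritin stores iron, and the second ferritin gene, ftn-2, fell by 0.37 (adjusted p = 0.000344). The heme transporter gene hrg-1 fell by 1.20 (adjusted p = 8.51e-06) and hrg-7, which codes for an aspartic protease of heme signalling, by 1.57 (adjusted p = 4.05e-06). Of 16 iron and heme genes 2 rose and 5 fell, and 1 rose without MT KO with Cd replicate 3 or MT KO without Cd replicate 2. Of the copper genes, the copper chaperone gene cuc-1 (−0.96, adjusted p = 0.000352) and cutc-1 (−0.52, adjusted p = 0.00728) fell and the copper ATPase gene cua-1 did not pass the test (adjusted p = 0.999).

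**Figure D2:**
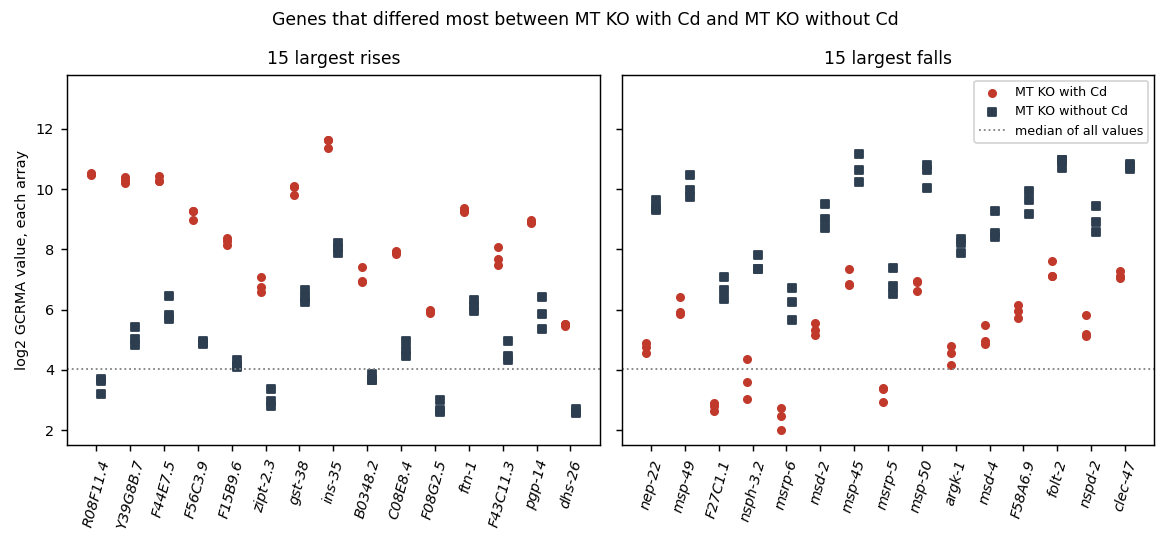
Log2 GCRMA value of each array for the 15 genes with the largest rise (left) and the 15 with the largest fall (right), with MT KO with Cd as red circles and MT KO without Cd as dark squares. The dotted line is the median of all values, 4.03. The groups do not overlap for any of the 30 genes, a condition of their choice.

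The 15 largest rises ran from 2.89 to 6.99 on the log2 scale. R08F11.4 read 10.46, 10.50 and 10.53 in MT KO with Cd, against 3.63, 3.70 and 3.19 in MT KO without Cd (log2 difference 6.99, SE 0.15, limma adjusted p = 3.33e-08), 127-fold above a level that may be background. It was followed by Y39G8B.7 (5.21, adjusted p = 2.07e-06), F44E7.5 (4.33, adjusted p = 9.94e-07), F56C3.9 (4.25, adjusted p = 3.45e-06) and F15B9.6 (4.09, adjusted p = 9.94e-07). These symbols are clone names with no role given here. The insulin-like peptide gene ins-35 rose from an already bright signal, with 11.62, 11.63 and 11.36 in MT KO with Cd, against 8.03, 7.89 and 8.21 in MT KO without Cd (log2 difference 3.49, SE 0.12, limma adjusted p = 4.56e-07). The ABC transporter gene pgp-14, of the P-glycoprotein family, read 8.97, 8.88 and 8.92 in MT KO with Cd, against 6.43, 5.85 and 5.34 in MT KO without Cd (log2 difference 3.05, SE 0.31, limma adjusted p = 0.000102). The remaining members of the 15 were gst-38, zipt-2.3, dhs-26, ftn-1, B0348.2 (3.37), C08E8.4 (3.21), F08G2.5 (3.19) and F43C11.3 (3.16). Of the 100 largest rises, 9 were C-type lectins and 4 were abu or other pharyngeal cuticle genes. These lists hold 220 and 39 of the 17118 genes. Clone names were borne by 42 of the 100 largest rises and by 45 of the 100 largest falls, and their share of all genes was not counted. By chromosome, 8 of the 15 lay on V, 4 on II and 3 on X, which hold 4317, 3013 and 2351 of the 17118 genes. The 15 largest falls lay 6 on II, 3 each on IV and V and 1 each on I, III and X.

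Glutathione S-transferases join glutathione to electrophiles. Of 45 genes 12 rose and 6 fell, with a median of 0.14. The largest rise was that of gst-38, with 10.10, 9.82 and 10.06 in MT KO with Cd, against 6.26, 6.38 and 6.64 in MT KO without Cd (log2 difference 3.57, SE 0.12, limma adjusted p = 4.09e-07), and gst-24 (2.80, adjusted p = 1.38e-05) and gst-20 (1.45, adjusted p = 8.49e-05) followed. The groups were separate for all 3, against 43.9% of all genes, and choice by small adjusted p favours this. The widely used stress reporter gene gst-4, singled out after its values were seen, read 8.64, 8.51 and 8.82 in MT KO with Cd, against 8.18, 8.36 and 8.23 in MT KO without Cd and did not pass the test (adjusted p = 0.08). The gene gst-13 fell by 0.99 (adjusted p = 0.000163).

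Other detoxification families were mixed. Of 73 cytochrome P450 genes, whose enzymes oxidise foreign and endogenous compounds, 14 rose and 5 fell. Examples are cyp-13A5 (1.47, adjusted p = 0.000378), cyp-34A2 (1.30, adjusted p = 0.000109), which was near background in both groups, and cyp-14A2, which fell by 1.83 (adjusted p = 0.000268). UDP-glucuronosyltransferases, which add sugar to small molecules, were higher at 9 and lower at 16 of 64 genes. For ugt-17 the values were 6.11, 6.03 and 6.23 in MT KO with Cd, against 8.74, 8.89 and 8.65 in MT KO without Cd (log2 difference −2.63, SE 0.11, limma adjusted p = 1.01e-06), and ugt-22 (−1.78, adjusted p = 9.85e-07) and ugt-47 (−1.60, adjusted p = 3.46e-06) fell too. Only faint signals were read for ugt-18, which rose by 1.15 (adjusted p = 1.14e-05). Of 30 short-chain dehydrogenases 8 rose and 8 fell. The gene dhs-26 read 5.46, 5.53 and 5.54 in MT KO with Cd, against 2.59, 2.56 and 2.71 in MT KO without Cd (log2 difference 2.89, SE 0.31, limma adjusted p = 0.000134), again from below the median of all values. Among 49 ABC transporters 5 rose and 13 fell, and the count that rose was 3 without MT KO with Cd replicate 3. The P-glycoprotein gene pgp-8 rose by 2.75 and pgp-11 by 1.17, and the peroxisomal-type transporter genes pmp-5 and pmp-1 fell by 2.42 and 1.06.

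Of 30 antioxidant and thiol redox genes 4 rose (13.3%) and 6 fell (20%), against 11.9% and 12.1% of all genes, with a median of −0.01. The methionine sulfoxide reductase gene msra-1, one of the brightest of them, had 9.84, 9.94 and 10.25 in MT KO with Cd, against 12.57, 12.51 and 12.30 in MT KO without Cd (log2 difference −2.45, SE 0.14, limma adjusted p = 4.49e-06). The cytosolic superoxide dismutase gene sod-1 fell as well, with 8.53, 8.38 and 8.55 in MT KO with Cd, against 10.26, 9.82 and 10.04 in MT KO without Cd (log2 difference −1.55, SE 0.13, limma adjusted p = 3.72e-05). The glutathione peroxidase genes gpx-7 (−0.95, adjusted p = 0.000637) and gpx-1 (−0.59, adjusted p = 0.0014) followed. All 4 had separate groups, against 43.9% of all genes, and choice by small adjusted p favours this.

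Cytosolic heat shock proteins were measured at 18 genes, 4 higher and 1 lower with Cd. The small heat shock protein gene sip-1 read 9.95, 9.74 and 9.87 in MT KO with Cd, against 7.38, 7.99 and 7.61 in MT KO without Cd (log2 difference 2.19, SE 0.24, limma adjusted p = 0.000134). The small heat shock genes hsp-12.2 (0.86, adjusted p = 0.000528) and hsp-43 (0.82, adjusted p = 0.00383) rose, and hsp-12.3 fell by 2.47 (adjusted p = 2.71e-05). The strongly heat-inducible genes hsp-70 and hsp-16.2, singled out after their values were seen, did not pass the test. For hsp-70 the arrays read 10.02, 9.72 and 9.14 in MT KO with Cd, against 9.36, 8.18 and 8.62 in MT KO without Cd, which overlap (adjusted p = 0.175). For hsp-16.2 they read 8.82, 8.91 and 8.58 in MT KO with Cd, against 9.12, 8.47 and 8.61 in MT KO without Cd (adjusted p = 0.962).

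Most genes of protein folding and degradation that changed were lower. Of 18 genes of the endoplasmic reticulum stress response 10 fell and 1 rose, with a median of −0.34. The chaperone gene hsp-4, a BiP homologue and the usual marker of this response, read 9.82, 9.87 and 9.83 in MT KO with Cd, against 10.61, 10.29 and 10.43 in MT KO without Cd (log2 difference −0.60, SE 0.11, limma adjusted p = 0.00253). The protein disulfide isomerase genes pdi-2 (−0.75, adjusted p = 0.00169) and pdi-1 (−0.37, adjusted p = 0.000727) and the choline kinase gene ckb-2 (−1.17, adjusted p = 0.000295) fell too. The count that fell was 6 to 9 in all alternative fits with 1 probe set per gene. It was 6 in the fit of the MT KO arrays alone, without MT KO with Cd replicate 1 and without MT KO without Cd replicate 2. Proteasome subunits were lower at 15 of 33 genes and higher at none, with a median of −0.27, and examples are rpn-6.2 (−1.07, adjusted p = 8.16e-05), pas-7 (−0.78, adjusted p = 0.00326), pbs-3 (−0.47, adjusted p = 0.00159) and rpn-7 (−0.36, adjusted p = 0.00182). That count was 8 without MT KO with Cd replicate 1 and 9 without MT KO without Cd replicate 2 or with centred arrays.

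Of 10 mitochondrial stress genes 2 passed the test and both fell by less than 0.4, ubl-5 (−0.32, adjusted p = 0.0287) and lonp-1 (−0.39, adjusted p = 0.0304), and neither call held without MT KO with Cd replicate 2 or 3 or without MT KO without Cd replicate 1. The chaperone genes hsp-60 and hsp-6, markers of the mitochondrial unfolded protein response, differed by −0.74 (adjusted p = 0.0994) and −0.24 (adjusted p = 0.404). Of 27 autophagy genes 4 rose (14.8%, against 11.9% of all genes), none fell (against 12.1%) and 23 were not called. The autophagy receptor gene sqst-1 read 10.14, 9.90 and 10.05 in MT KO with Cd, against 9.09, 9.22 and 9.33 in MT KO without Cd (log2 difference 0.82, SE 0.072, limma adjusted p = 4.56e-05), and lgg-1 (0.61, adjusted p = 0.00284), atg-16.2 (0.53, adjusted p = 0.0128) and lgg-2 (0.50, adjusted p = 0.0145) were the others. Without MT KO with Cd replicate 3, 7 were called, and lgg-2 lost its call (adjusted p = 0.0555) without MT KO without Cd replicate 3. None of 11 DNA damage response genes passed the limma test, and 3 had an unadjusted p under 0.05, among them mrt-2 (−0.62, adjusted p = 0.0553) and rad-51 (−0.41, adjusted p = 0.0684). Without MT KO with Cd replicate 1 or 3, or MT KO without Cd replicate 1 or 2, 1 was called lower.

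Of 82 genes for lysozymes and antimicrobial peptides 31 rose and 9 fell, with a median of 0.12. The lysozyme gene lys-7 read 11.37, 11.65 and 11.64 in MT KO with Cd, against 9.55, 9.55 and 9.64 in MT KO without Cd (log2 difference 1.97, SE 0.085, limma adjusted p = 1.28e-06). The saposin-like gene spp-18 (1.83, adjusted p = 9.85e-07) and irg-3 (1.51, adjusted p = 1.83e-06), a gene named for its response to infection, rose, and the invertebrate lysozyme gene ilys-5 fell by 0.76 (adjusted p = 4.92e-06). The epidermal antimicrobial peptide gene nlp-29, singled out after its values were seen, had 9.09, 8.80 and 8.62 in MT KO with Cd, against 8.05, 7.81 and 7.87 in MT KO without Cd (log2 difference 0.93, SE 0.15, limma adjusted p = 0.00146). Of the 220 C-type lectins, a family of secreted sugar-binding proteins most of which were near background, 24 rose (10.9%) and 22 fell (10%), against 11.9% and 12.1% of all genes. Rises were led by clec-52, with 8.61, 8.71 and 8.75 in MT KO with Cd, against 5.50, 6.12 and 5.94 in MT KO without Cd (log2 difference 2.84, SE 0.14, limma adjusted p = 2.14e-06), clec-67 (2.77, adjusted p = 1.36e-06) and clec-76 (2.55, adjusted p = 1.58e-06). The lectin gene with the largest fall was clec-47, with 7.29, 7.07 and 7.13 in MT KO with Cd, against 10.75, 10.84 and 10.68 in MT KO without Cd (log2 difference −3.59, SE 0.10, limma adjusted p = 9.31e-08). Of 9 dod genes, named as downstream of the insulin pathway factor DAF-16, 4 rose, among them dod-24 (1.01, adjusted p = 0.000106) and dod-6 (1.12, adjusted p = 0.00353). The count was 2 without MT KO with Cd replicate 2 and 2 without MT KO without Cd replicate 3.

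Major sperm proteins form the fibres on which nematode sperm crawl and also signal to oocytes. All 23 of their genes with a probe set of 1 symbol fell, each at least 4-fold, with differences from −3.98 to −2.29 and a median of −2.90. The lowest, msp-49, read 5.87, 5.92 and 6.41 in MT KO with Cd, against 9.72, 9.97 and 10.46 in MT KO without Cd (log2 difference −3.98, SE 0.25, limma adjusted p = 6.63e-06). The brightest of the examples, msp-76, read 8.72, 8.74 and 8.92 in MT KO with Cd, against 11.43, 11.76 and 11.91 in MT KO without Cd (log2 difference −2.91, SE 0.15, limma adjusted p = 2.72e-06). In each of the 23 genes, all arrays with Cd lay below all arrays without. The msp genes are near-identical copies, and all 23 probe sets are of the kinds that the manufacturer marks as matching several transcripts, so the genes cannot be taken as 23 separate measurements. Values of msp-45 (−3.67, adjusted p = 1.24e-05), msp-50 (−3.65, adjusted p = 3.47e-06) and msp-38 (−3.12, adjusted p = 3.46e-06) were alike. In bulk samples, fewer cells of a type and less RNA per cell cannot be told apart.

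Of 29 small sperm protein genes, the msd, msrp, ssp, sss, ssq and nspd families, 25 fell and 1 rose, with a median of −2.40. The rise was not called without MT KO with Cd replicate 1 or 2 or any 1 array of MT KO without Cd. The gene msd-2, with a major sperm protein domain, had 5.33, 5.17 and 5.55 in MT KO with Cd, against 8.71, 9.01 and 9.51 in MT KO without Cd (log2 difference −3.73, SE 0.29, limma adjusted p = 2.35e-05). The sperm-specific gene ssp-35 had 3.66, 3.52 and 3.82 in MT KO with Cd, against 6.88, 7.01 and 7.63 in MT KO without Cd (log2 difference −3.51, SE 0.20, limma adjusted p = 4.69e-06), and with Cd lay below the median of all values. The others named by rank were msrp-6 (−3.80, adjusted p = 1.51e-05), msrp-5 (−3.66, adjusted p = 3.33e-05), msd-4 (−3.64, adjusted p = 1.89e-05), nspd-2 (−3.60, adjusted p = 2.25e-05), nspd-1 (−3.33, adjusted p = 6.1e-06) and nspd-4 (−3.21, adjusted p = 1.18e-05). The groups were separate in all of them, a feature that choice by rank favours. Of the 29 probe sets of this list, 15 are of the kinds marked as matching several transcripts.

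Of 40 spermatogenesis genes, named mostly for mutants with defective sperm, 22 fell and 2 rose, with a median of −0.67. The sperm protein phosphatase genes gsp-3 and gsp-4 fell to a similar extent. For gsp-3 the arrays read 4.92, 4.97 and 5.30 in MT KO with Cd, against 7.56, 7.44 and 7.72 in MT KO without Cd (log2 difference −2.51, SE 0.14, limma adjusted p = 4.05e-06). For gsp-4 they read 4.77, 4.82 and 4.79 in MT KO with Cd, against 7.18, 7.12 and 7.39 in MT KO without Cd (log2 difference −2.44, SE 0.12, limma adjusted p = 2.65e-06). The gene spe-18 (−2.53, adjusted p = 1.37e-05) was the fourth example by rank. Singled out after their values were seen were spe-11, which supplies a paternal factor to the embryo (−2.61, adjusted p = 3.51e-05), spe-26 (−2.22, adjusted p = 5.67e-05) and spe-44, which codes for a transcription factor of the spermatogenesis programme. That regulator was reduced less, with 6.01, 5.70 and 6.26 in MT KO with Cd, against 6.76, 6.71 and 6.58 in MT KO without Cd (log2 difference −0.69, SE 0.13, limma adjusted p = 0.00376). The sperm fate gene fog-1, which acts before the sperm genes, went the other way, with 6.25, 6.63 and 6.50 in MT KO with Cd, against 4.98, 5.09 and 5.20 in MT KO without Cd (log2 difference 1.37, SE 0.095, limma adjusted p = 1.18e-05). Over the 3 sperm lists 70 of 92 genes fell and 3 rose, with a median of −2.30. Of the 100 genes with the largest falls, 33 were on these lists.

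**Figure D3:**
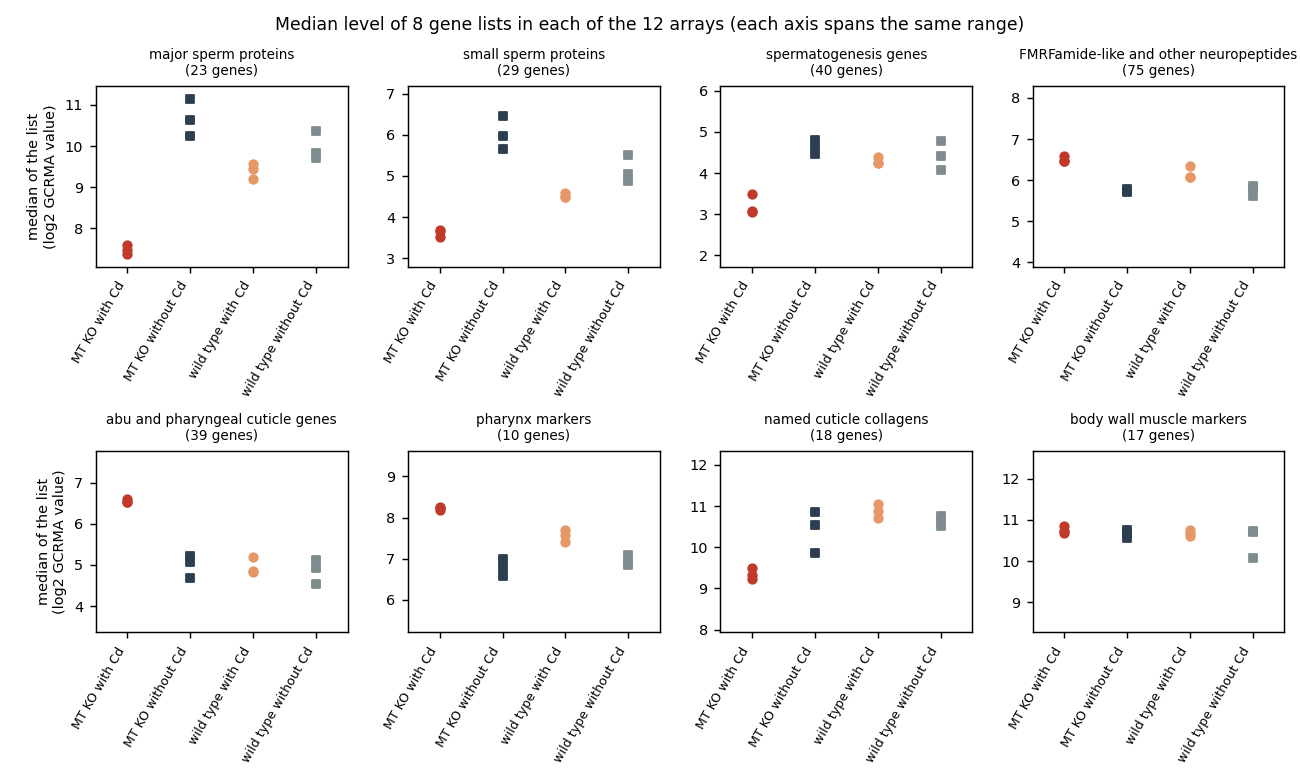
Median log2 GCRMA value over the genes of 8 lists, 1 point per array, 3 arrays in each of 4 groups (circles with Cd, squares without Cd). The vertical axes differ in position and have the same span. The medians of the sperm lists were lowest in MT KO with Cd (major sperm proteins 7.38 to 7.59, against 10.24 to 11.15 in MT KO without Cd), and those of the pharynx and neuropeptide lists were highest in MT KO with Cd.

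The sperm lists set MT KO with Cd apart from all other groups. The median level of the 23 major sperm protein genes was 7.38 to 7.59 on the MT KO arrays with Cd and 10.24 to 11.15 on those without. In wild type it was 9.21 to 9.56 with Cd and 9.72 to 10.37 without. In wild type 1 of these 23 genes passed the test with Cd, against 12.7% of all genes (6.5% higher, 6.22% lower), with a median of −0.42 over the list, and the difference of responses passed the test for all 23. It did so for 21 of the 29 small sperm proteins and for 13 lower and 1 higher of the 40 spermatogenesis genes. Over all genes the difference of responses was called in 5.8%, higher in 2.25% and lower in 3.55%. For the major sperm proteins, the MT KO level without Cd was itself above that of wild type with Cd on each array. The levels without Cd overlapped, at 10.24, 10.64 and 11.15 in MT KO and 10.37, 9.83 and 9.72 in wild type, mostly higher in MT KO. The part of these starting levels in the difference of responses was not tested.

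Other nematode specific peptide families were split. Of 15 genes 8 rose and 5 fell. The gene nsph-3.2 read 3.59, 3.03 and 4.36 in MT KO with Cd, against 7.36, 7.33 and 7.82 in MT KO without Cd (log2 difference −3.84, SE 0.29, limma adjusted p = 1.96e-05), and nsph-3.1 (−2.85, adjusted p = 1.15e-05) fell as well. All 4 of the measured nspb genes and 4 of 5 nspe genes rose, nspe-1 by 2.31 (adjusted p = 0.000309), and 4 of 5 nsph genes fell. Among the 15 largest falls, F27C1.1 (−3.91, adjusted p = 5.61e-05) and F58A6.9 (−3.62, adjusted p = 1.17e-05) have clone names. In both, as in nsph-3.2, the response was larger than in wild type by the test of the difference.

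Of 26 genes of germline mitosis and meiosis 4 fell (15.4%, against 12.1% of all genes), none by more than 1.6-fold, and none rose. They were pgl-1 (−0.42, adjusted p = 0.000614) and pgl-3 (−0.63, adjusted p = 0.00484), of the germ granules, glh-4 (−0.43, adjusted p = 0.00199) and the synaptonemal complex gene syp-2 (−0.32, adjusted p = 0.00492). Of 24 DNA replication and cell cycle genes 5 fell, and 2 to 9 did under the alternatives. It was 2 without MT KO with Cd replicate 1 or 2, 3 without MT KO without Cd replicate 2 or 3 and 8 without MT KO with Cd replicate 3. The clearest was cyb-1, a cyclin B (−0.58, adjusted p = 0.00302). Of 21 oocyte and embryo genes 1 rose and 1 fell. The rise lost its call without any 1 of 5 of the 6 MT KO arrays. The fall was that of egg-6, −1.12 (adjusted p = 4.21e-05). In wild type 9 rose with Cd. Of 26 histone genes 3 rose (11.5%) and 2 fell (7.69%), against 11.9% and 12.1% of all genes. The largest change among them was in his-70 (−1.99, adjusted p = 0.000275), an H3 variant.

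Yolk protein genes switch on in the adult intestine, and 1 of 5 was above the median of all values in both groups. Of these 5 vitellogenin genes 3 fell. The gene vit-6 read 4.07, 4.07 and 3.75 in MT KO with Cd, against 6.23, 6.82 and 7.33 in MT KO without Cd (log2 difference −2.83, SE 0.25, limma adjusted p = 4.95e-05), and vit-1 (−2.32, adjusted p = 4.41e-05) and vit-2 (−1.35, adjusted p = 0.0133) fell too. The last lost its call, with an adjusted p of 0.0553, when the 6 MT KO arrays alone were fitted. The gene vit-5 was at 2.30 to 2.32 with Cd and 2.29 to 2.30 without, in the range of background.

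Part of the cuticle genes was lower. Of 18 collagen genes named for body shape or blister mutants 8 fell, each at least 2-fold, and none rose, with a median of −0.38. Without MT KO without Cd replicate 3, 1 was called higher. For dpy-3 the arrays read 9.48, 9.53 and 9.58 in MT KO with Cd, against 10.67, 10.89 and 11.22 in MT KO without Cd (log2 difference −1.40, SE 0.11, limma adjusted p = 2.68e-05). The genes dpy-2 (−1.16, adjusted p = 7.79e-05), dpy-7 (−1.09, adjusted p = 0.000102) and dpy-9 (−1.25, adjusted p = 0.000292) were alike. The groups were separate for each of the 4, a feature that choice by small adjusted p favours. Singled out after their values were seen, bli-1 and bli-2, which build the struts of the adult cuticle, read lower with Cd too. For bli-1 the values were 8.89, 9.47 and 9.07 in MT KO with Cd, against 10.30, 10.91 and 11.41 in MT KO without Cd (log2 difference −1.73, SE 0.27, limma adjusted p = 0.00119). For bli-2 they were 8.44, 8.63 and 8.81 in MT KO with Cd, against 9.62, 10.59 and 11.07 in MT KO without Cd (log2 difference −1.80, SE 0.34, limma adjusted p = 0.00376). The array of MT KO without Cd replicate 1 was the lowest of its group in both. The abundant collagen gene sqt-3 differed by −0.13 (adjusted p = 0.364).

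Of 22 moulting genes 10 fell and 2 rose, with a median of −0.38. The protease inhibitor gene mlt-11 read 9.48, 9.64 and 9.34 in MT KO with Cd, against 10.80, 10.88 and 10.80 in MT KO without Cd (log2 difference −1.34, SE 0.11, limma adjusted p = 2.61e-05) and was called at 3 of its 4 probe sets. The zona pellucida domain gene noah-2 (−1.26, adjusted p = 0.00016) and the fibrillin-like gene fbn-1 (−0.86, adjusted p = 0.00321) fell, and the peroxidase gene mlt-7 rose by 1.32 (adjusted p = 0.0012) at 1 of 2 probe sets. Of 128 numbered collagens 15 rose (11.7%) and 8 fell (6.25%), against 11.9% and 12.1% of all genes. Among them col-149 fell by 2.39 at 1 of 2 probe sets, and col-113 (1.29, adjusted p = 7.79e-05) and col-118 (1.12, adjusted p = 8.09e-05) rose. With array weights 24 of the numbered collagens rose, and 4 fell without MT KO with Cd replicate 2. Of 79 hedgehog-related and patched-related genes, which act in cuticle secretion and moulting, 14 rose (17.7%) and 8 fell (10.1%). The warthog gene wrt-10 fell by 1.39 and ptr-23 rose by 1.24.

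The pharynx is the feeding organ, a muscular pump lined with its own cuticle. Of 10 pharynx markers 9 rose and none fell, with a median of 1.18. In wild type 6 of the 10 rose with Cd and none fell, with a median of 0.53. The difference of responses, MT KO minus wild type, was called for 5 and was positive in each. For pha-4, the transcription factor that sets pharynx identity, the arrays read 5.37, 5.59 and 5.35 in MT KO with Cd, against 4.03, 3.95 and 4.06 in MT KO without Cd (log2 difference 1.42, SE 0.10, limma adjusted p = 1.03e-05). The troponin gene tnt-4 read 10.58, 10.57 and 10.53 in MT KO with Cd, against 9.42, 9.22 and 9.24 in MT KO without Cd (log2 difference 1.27, SE 0.089, limma adjusted p = 1.32e-05). The groups were separate in both, a feature that choice by small adjusted p favours. For pha-4 the level without Cd was at the median of all values. The myosin gene myo-5 (1.71, adjusted p = 3.16e-05) and marg-1 (1.81, adjusted p = 4.24e-05) were the other examples, and the pharyngeal myosin gene myo-2, singled out after its values were seen, rose by 1.18 (adjusted p = 0.000338).

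The abu genes and their relatives, which code for repetitive, low-complexity proteins of the pharyngeal cuticle, were measured at 39 genes. Of these 28 rose, 22 of them at least 2-fold, and none fell, with a median of 1.14. Of the 39 probe sets, 15 are of the kinds that the manufacturer marks as matching several transcripts. The counts for this list therefore cannot all be taken as separate measurements. For abu-14 the values were 10.17, 10.19 and 10.43 in MT KO with Cd, against 8.77, 8.46 and 8.22 in MT KO without Cd (log2 difference 1.78, SE 0.18, limma adjusted p = 9.06e-05). Of the idpp genes 10 of 16 rose, of the phat genes 7 of 8 and of the abu genes 7 of 11. The gene idpp-12 read 9.05, 8.90 and 9.25 in MT KO with Cd, against 7.25, 7.12 and 6.91 in MT KO without Cd (log2 difference 1.97, SE 0.22, limma adjusted p = 0.00018). Other examples are idpp-16 (1.80, adjusted p = 3.86e-05), idpp-11 (1.18, adjusted p = 5.1e-05) and phat-2 (1.08, adjusted p = 2.71e-05). The nspb genes stand both here and among the nematode specific peptides. The list's median level was 6.52 to 6.60 on the arrays with Cd and 4.69 to 5.22 on those without, against 4.82 to 5.19 in wild type with Cd and 4.53 to 5.13 in wild type without. In wild type 7 of the 39 rose and 1 fell. The difference of responses, MT KO minus wild type, was called for 13 and was positive in each. Of these, nspb-10 rose by 0.84 in MT KO and fell by 1.19 in wild type.

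By number of genes, the neuropeptide list held the most rises of the 53 lists. Neuropeptides are short signals cut from precursors and released by neurons. Of 75 genes 56 rose and none fell, with a median of 0.83, and the number that rose was between 47 and 59 in the alternative fits. Of the FMRFamide-like flp genes 20 of 25 rose. For flp-3 the arrays read 6.91, 7.14 and 7.02 in MT KO with Cd, against 5.82, 5.53 and 5.53 in MT KO without Cd (log2 difference 1.40, SE 0.092, limma adjusted p = 9.48e-06). For nlp-13 they read 7.33, 7.30 and 7.34 in MT KO with Cd, against 6.36, 6.20 and 6.21 in MT KO without Cd (log2 difference 1.07, SE 0.063, limma adjusted p = 5.39e-06). Both genes had tight and separate groups, features that choice by small adjusted p favours. The genes nlp-51 (1.73, adjusted p = 3.77e-05) and snet-1 (0.91, adjusted p = 2.76e-05) were the other examples. In wild type 28 of the 75 rose with Cd and 1 fell. The difference of responses, MT KO minus wild type, was called for 12 and was positive in each.

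Of the neuron markers, egl-3 and egl-21 code for enzymes that process these precursors. The proprotein convertase gene egl-3 read 10.47, 10.62 and 10.39 in MT KO with Cd, against 9.29, 9.19 and 9.27 in MT KO without Cd (log2 difference 1.25, SE 0.089, limma adjusted p = 1.45e-05). The carboxypeptidase gene egl-21 read 9.52, 9.54 and 9.66 in MT KO with Cd, against 8.22, 8.31 and 8.41 in MT KO without Cd (log2 difference 1.26, SE 0.091, limma adjusted p = 1.5e-05). Of 21 neuron markers 9 rose and none fell, with a median of 0.30, among them unc-25, the enzyme that makes GABA (1.22, adjusted p = 0.000344), and unc-10 (0.81, adjusted p = 3.78e-05), a synaptic gene called at 1 of 3 probe sets. Of 24 insulin-like peptide genes 11 rose and 1 fell. Besides ins-35 these include ins-30 (0.93, adjusted p = 0.000372), ins-6 (0.65, adjusted p = 0.00221) and the faint ins-1 (0.51, adjusted p = 0.00172). The count that rose was 7 without MT KO with Cd replicate 3 and 7 without MT KO without Cd replicate 1 or 2.

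Muscle and intestine markers moved otherwise. Of 17 body wall muscle genes 2 rose (11.8%, against 11.9% of all genes), unc-27 (0.15, adjusted p = 0.0247) and mlc-2 (0.24, adjusted p = 0.0492). The count was 0 to 6 under the alternatives, and neither call held without MT KO with Cd replicate 2 or without MT KO without Cd replicate 2. Counted over all probe sets of these genes, 8 of 39 were higher and none lower, against 11.5% higher of all probe sets. The median level of this list was 10.69 to 10.86 with Cd and 10.57 to 10.74 without. Of 12 intestine genes 5 fell and 2 rose, and 1 rose without any 1 of 10 of the 12 arrays and 4 with centred arrays. The intestinal peptide transporter gene pept-1 read 7.49, 7.49 and 7.87 in MT KO with Cd, against 10.03, 9.90 and 9.98 in MT KO without Cd (log2 difference −2.35, SE 0.13, limma adjusted p = 4.01e-06). The sodium-proton exchanger gene nhx-2 (−1.51, adjusted p = 0.000162) and the intestinal actin gene act-5 (−0.84, adjusted p = 0.000216) fell, and the gut esterase gene ges-1 rose by 0.71 (adjusted p = 0.000194). The part of tissue proportions in these results was not tested. Of 29 lysosomal proteases 7 rose and 7 fell, and 12 rose with centred arrays. The aspartic protease genes asp-14 (1.09, adjusted p = 1.73e-05) and asp-8 (1.07, adjusted p = 7.1e-06) rose, and the cathepsin B-like genes cpr-8 (−1.22, adjusted p = 1.67e-05) and cpr-5 (−0.85, adjusted p = 2.8e-05) fell.

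The largest fall of all was that of nep-22, of the neprilysin family of peptide-cutting membrane enzymes, with 4.77, 4.57 and 4.91 in MT KO with Cd, against 9.65, 9.37 and 9.31 in MT KO without Cd (log2 difference −4.70, SE 0.11, limma adjusted p = 3.33e-08). Its groups were separated by more than 4 log2 units. Of 25 neprilysin genes 7 fell and 1 rose, the rise being lost without MT KO with Cd replicate 3 or MT KO without Cd replicate 3. The gene nep-17 fell by 1.86 (adjusted p = 1.5e-05). Arginine kinases, which keep phosphoarginine as an energy reserve, were lower at 2 of 3 genes. The gene argk-1 read 4.79, 4.17 and 4.56 in MT KO with Cd, against 7.89, 8.34 and 8.21 in MT KO without Cd (log2 difference −3.64, SE 0.23, limma adjusted p = 7.35e-06). The second, ZC434.8, fell by 1.15 (adjusted p = 7.05e-05).

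Genes of fatty acid breakdown were lower in most cases where they changed. The list of fatty acid activation and beta-oxidation held 63 genes, with a median of −0.38, of which 33 fell and 4 rose. The acyl-CoA dehydrogenase gene acdh-8 read 4.64, 4.62 and 4.84 in MT KO with Cd, against 7.15, 7.33 and 7.58 in MT KO without Cd (log2 difference −2.65, SE 0.17, limma adjusted p = 7.49e-06). The gene acdh-2, singled out after its values were seen, read 4.79, 4.72 and 4.79 in MT KO with Cd, against 8.24, 8.18 and 7.39 in MT KO without Cd (log2 difference −3.18, SE 0.33, limma adjusted p = 0.000102). The acyl-CoA synthetase gene acs-10 (−1.90, adjusted p = 2.67e-05) fell to a level near background. In wild type 22 of the 63 fell and 5 rose. Of 15 desaturases and elongases, which build polyunsaturated and long-chain fatty acids, 6 fell and 1 rose, and none rose without MT KO without Cd replicate 2 or 3. The stearoyl-CoA desaturase gene fat-7 read 5.65, 5.68 and 5.63 in MT KO with Cd, against 8.18, 8.52 and 8.89 in MT KO without Cd (log2 difference −2.88, SE 0.17, limma adjusted p = 5.06e-06), and the elongase genes elo-7 (−1.96, adjusted p = 1.91e-05) and elo-1 (−0.60, adjusted p = 6.18e-05) fell. Of 8 lysosomal lipase-like genes 4 rose, none fell and 4 were not called, with a median of 0.21. For lipl-2 the values were 6.76, 7.60 and 7.35 in MT KO with Cd, against 4.76, 5.62 and 4.80 in MT KO without Cd (log2 difference 2.18, SE 0.25, limma adjusted p = 0.000193), and lipl-1 rose by 2.06 (adjusted p = 0.000618).

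Propionate, a toxic product of the breakdown of some amino acids and fatty acids, is cleared in C. elegans by a vitamin B12-dependent pathway or by a shunt. The 4 shunt enzymes acdh-1, ech-6, hach-1 and hphd-1 all fell. The first, acdh-1, read 11.24, 11.44 and 11.60 in MT KO with Cd, against 13.28, 13.14 and 12.99 in MT KO without Cd (log2 difference −1.71, SE 0.13, limma adjusted p = 1.96e-05). For hach-1 the values were 8.66, 8.86 and 8.93 in MT KO with Cd, against 11.24, 10.96 and 10.65 in MT KO without Cd (log2 difference −2.13, SE 0.17, limma adjusted p = 2.8e-05). The hydratase gene ech-6 (−1.39, adjusted p = 1.14e-05) and the dehydrogenase gene hphd-1 (−1.85, adjusted p = 7.49e-06) completed the set. Of the 11 genes of propionate breakdown 6 fell and none rose, and 1 was called higher without MT KO without Cd replicate 1. The nuclear hormone receptor gene nhr-68, known to be needed for induction of the shunt, read 6.87, 7.03 and 7.08 in MT KO with Cd, against 8.27, 8.08 and 7.94 in MT KO without Cd (log2 difference −1.10, SE 0.10, limma adjusted p = 5.32e-05).

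Counting transsulfuration with the methionine cycle, 9 of 20 genes fell and 3 rose. The cystathionine gamma-lyase gene cth-1 read 6.51, 6.33 and 6.31 in MT KO with Cd, against 9.73, 9.53 and 9.47 in MT KO without Cd (log2 difference −3.20, SE 0.13, limma adjusted p = 9.94e-07). The methionine synthase gene metr-1 (−1.80, adjusted p = 1.51e-05), its reductase gene mtrr-1 (−2.16, adjusted p = 7.59e-07) and the serine hydroxymethyltransferase gene mel-32 (−0.92, adjusted p = 4.11e-05) fell. The folate transporter family gene folt-2, among the 15 largest falls, read 7.10, 7.12 and 7.61 in MT KO with Cd, against 10.98, 10.95 and 10.71 in MT KO without Cd (log2 difference −3.60, SE 0.26, limma adjusted p = 1.5e-05). The receptor gene nhr-114, known to activate methionine cycle genes and singled out after its values were seen, read 4.23, 4.29 and 5.10 in MT KO with Cd, against 7.33, 7.04 and 7.18 in MT KO without Cd (log2 difference −2.64, SE 0.35, limma adjusted p = 0.000443). The groups were separate in each, a feature that the choice of these genes favours. Of all 254 nuclear hormone receptors measured 35 rose and 13 fell, nhr-260 by 1.51 upward and nhr-137 by 1.20 downward among the rest.

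Glycolysis and TCA cycle genes were split, with 10 of 46 higher and 8 lower, the hexokinase gene hxk-1 (0.63, adjusted p = 0.000299) among those higher and the succinyl-CoA ligase gene sucg-1 (−1.05, adjusted p = 0.000161) among those lower. Of 75 ribosomal protein genes 2 fell and none rose. Neither ribosomal call held with centred arrays or without MT KO without Cd replicate 1. Of 19 vacuolar ATPase subunits 1 rose and 1 fell. Of these 5 fell without wild type without Cd replicate 1 and 8 with the 3′ to 5′ control signal as a covariate.

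Calls were not spread evenly over the chromosomes. On the X chromosome, 358 of 2351 genes rose and 217 fell, 15.2% and 9.23%. On chromosome V, the percentages were 12.6 and 8.25. On chromosomes I, III and IV more genes fell than rose, with 9.11% higher and 14.9% lower on I, 11.5% and 14.3% on III and 11.3% and 15.6% on IV. On chromosome II they were 11.6% and 12.8%. None of the 92 sperm genes lay on X, and 29 lay on IV, 26 on I, 21 on II, 10 on V and 6 on III. Without them the percentages on IV were 11.5 and 14.9. Neighbouring and copied genes are not independent, and no test was made.

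**Figure D4:**
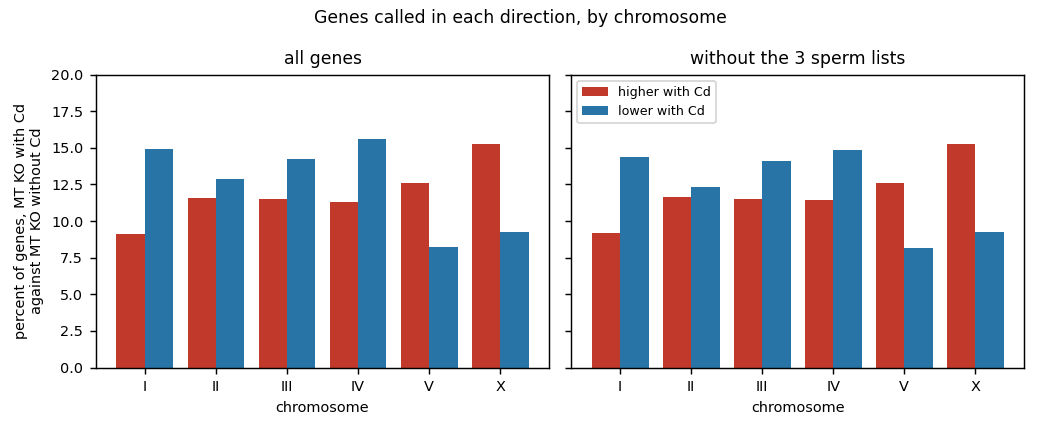
Percent of the genes of each chromosome called higher (red) or lower (blue) in MT KO with Cd against MT KO without Cd, at a limma adjusted p under 0.05, for all genes and without the 92 sperm genes. Higher calls outnumber lower ones on V and X, and lower ones outnumber higher ones on I to IV.

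The response of wild type was set beside that of MT KO through the test of the difference between strains. With Cd, 2177 of 17118 genes were called in wild type (by probe set 11.9%, 6.44% higher and 5.5% lower), and 1400 genes were called in the same direction in both strains, 34.1% of those called in MT KO and 64.31% of those called in wild type. Another 25 genes were called in opposite directions. By probe set the difference of responses was called in 5.45%, higher in 2.09% and lower in 3.36%. Of the 4106 genes called in MT KO, the difference of responses was itself called for 875, 21.31%, and in 822 of these the response was larger in MT KO. The share was 27.14% of the genes that fell and 15.4% of those that rose. Choosing genes by their call in MT KO favours larger responses there, and the same count was not made for genes called in wild type. Over all 17118 genes the difference was called for 992, 385 higher and 607 lower. Among the 30 genes with the largest changes, nep-22, clec-47, argk-1, folt-2 and 13 of the 15 rises did not pass the test of the difference. R08F11.4 rose by 6.99 in MT KO and 6.46 in wild type, and nep-22 differed by −4.70 in MT KO and −4.65 in wild type. Without the wild-type array that stood apart in 3′ to 5′ signal, the difference of responses was called for 1334 probe sets, against 1229 with it. It then held for all 23 major sperm proteins, 21 small sperm proteins, 14 lower and 1 higher of the spermatogenesis genes, 17 abu and pharyngeal cuticle genes, 9 neuropeptides and 4 named collagens.

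The 5 largest positive differences of response were taken among genes called in MT KO, and each of these genes rose there. Genes not called in MT KO could not be among them. The C-type lectin gene clec-67 read 8.41, 8.33 and 8.20 in MT KO with Cd, against 5.65, 5.56 and 5.40 in MT KO without Cd. In wild type its groups averaged 7.82 with Cd and 7.78 without, and the difference of responses was 2.73 (SE 0.17, limma adjusted p = 0.000162). For idpp-12 it was 2.27 (SE 0.31, limma adjusted p = 0.00374), for B0024.4 2.18 (SE 0.33, limma adjusted p = 0.00542), for W08E12.2 2.12 (SE 0.39, limma adjusted p = 0.0132) and for piit-1 2.08 (SE 0.33, limma adjusted p = 0.00709). B0024.4 rose in MT KO by 1.23 and fell in wild type by 0.95. The largest negative differences among genes changed in MT KO were those of cdr-1, msp-49, nsph-3.2, F27C1.1 and msd-2, from −4.51 to −3.17.

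**Figure D5:**
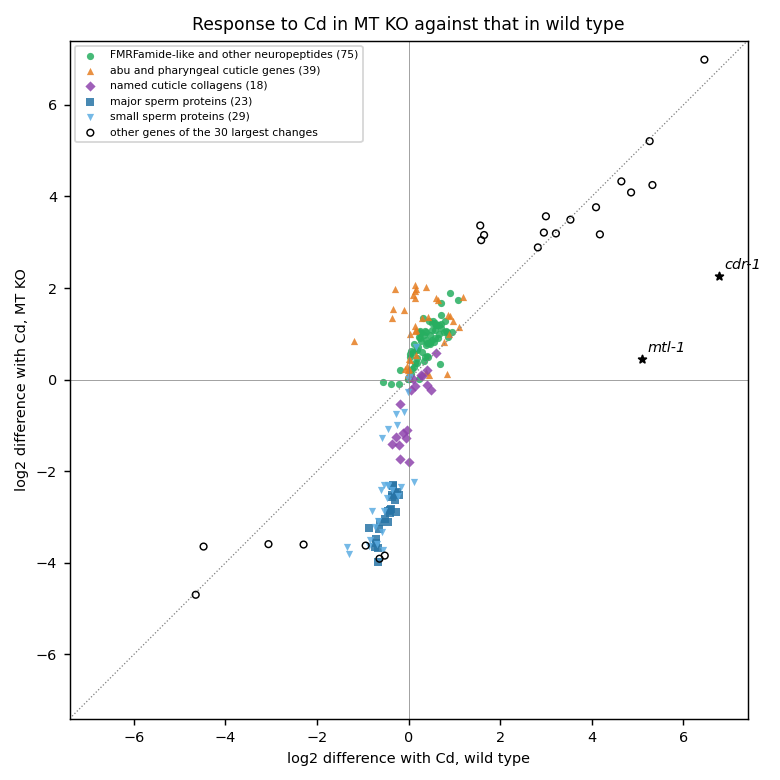
Log2 difference with Cd in MT KO (vertical) against that in wild type (horizontal) for the genes of 5 lists, with the other genes of the 30 largest changes as open circles and cdr-1 and mtl-1 as stars. On the dotted line both responses are equal. Major sperm protein genes lie between −3.98 and −2.29 in MT KO with a median of −0.42 in wild type.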

How the data were processed

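RNA of whole L4 larvae was measured on 12 Affymetrix arrays, 3 per group. The authors deposited log2 values made with GCRMA, per the submitters' processing notes, which give no version. Values ran from 1.56 to 14.5, with array medians of 3.977 to 4.067, and the number of arrays limits the precision. From 22625 probe sets 77 controls were left out. Of the 22548 tested, 20766 had 1 gene symbol, 887 several and 895 none, and 20701 symbols were matched in RefSeq WBcel235, which gave the chromosomes. A gene was represented by its probe set of highest mean. Where several probe sets existed, pdi-1, lonp-1 and mlc-2 were called at 1 of 2, cyb-1 at 2 of 3 and ptr-23 at 3 of 4.

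A model of 4 group means over the 12 arrays (limma 3.58.1, R 4.3.3, 8 residual degrees of freedom) was tested on simulated data and then used, with Benjamini-Hochberg adjustment over all probe sets and a threshold of 0.05. Python 3.11.15 was used for summaries. Named are the 15 largest rises and 15 largest falls with separate groups and up to 4 genes of each list, those with the smallest adjusted p. The 5 largest differences of response in each direction were taken among genes called both in MT KO and in the difference. Genes said to be singled out were added after their values were seen. Members and lists were chosen with earlier results of these data known. Alternatives were array weights, median centring, quantile normalization, a filter on low values, a fit of MT KO alone, an intensity trend, a 3′ to 5′ covariate, a replicate block and leaving out each array.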

Additional observations from a re-analysis of the deposited data

Results flagged for a closer look

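The test of the difference between strains, the log2 response to Cd in MT KO minus that in wild type (limma interaction contrast, adjusted p under 0.05), was passed by the following named genes, and each value is that difference. Among sperm genes the values were msp-49 −3.32, msp-45 −2.99, msp-50 −2.93, msp-38 −2.67, msp-76 −2.49, msd-2 −3.17, msd-4 −2.76, msrp-6 −2.50, msrp-5 −2.31, nspd-2 −2.91, nspd-1 −2.76, nspd-4 −2.48 and ssp-35 −2.66. Spermatogenesis genes gave gsp-3 −2.44, gsp-4 −2.49, spe-11 −2.52, spe-26 −2.33, spe-18 −2.26, spe-44 −0.94 and fog-1 0.93. Metal genes gave mtl-1 −4.66, cdr-1 −4.51, cdr-6 0.45 and cdf-2 −1.79. The gene mtl-1 is among those named in the genotype, and without Cd both cdr-1 and cdf-2 averaged higher in MT KO than in wild type. Among cuticle and moulting genes they were bli-1 −1.54, dpy-2 −1.03, dpy-3 −1.04, dpy-7 −1.05, dpy-9 −0.97, noah-2 −1.14, mlt-11 −0.96, mlt-7 1.35, wrt-10 −0.95, ptr-23 0.72, col-113 1.12 and col-118 0.82. Pharynx and pharyngeal cuticle genes gave pha-4 0.92, myo-5 1.10, tnt-4 0.52, marg-1 1.01, abu-14 1.18, idpp-11 1.04, idpp-12 2.27 and phat-2 0.91, and neuronal and peptide genes flp-3 0.69, nlp-13 0.70, snet-1 0.67, egl-3 0.67, unc-10 0.60, ins-1 0.49, ins-6 0.69 and ins-30 0.73. Metabolic genes gave acdh-8 −2.56, acs-10 −2.01, elo-7 −1.58, hach-1 −1.08, hphd-1 −0.75, pmp-1 0.48, ugt-18 1.14, ugt-22 −0.54 and ZC434.8 −1.26. Protein folding, degradation and defence genes gave hsp-4 −0.61, hsp-12.3 −1.36, hsp-43 0.96, rpn-6.2 −0.99, rpn-7 −0.47, cpr-5 −0.46, clec-67 2.73, irg-3 0.64, spp-18 0.68 and ilys-5 0.39. Germline and histone genes gave pgl-3 −0.75, glh-4 −0.46, syp-2 −0.37, egg-6 −0.75 and his-70 −1.47. The remaining genes were nsph-3.2 −3.32, F27C1.1 −3.27, F58A6.9 −2.69, nsph-3.1 −2.42, nhr-137 −0.85, nhr-260 0.95, F43C11.3 1.51, B0348.2 1.80, piit-1 2.08, W08E12.2 2.12 and B0024.4 2.18.

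Without wild type without Cd replicate 1, the array that stood apart in the 3′ to 5′ control signal, 77 of these 87 genes passed the test, and cdr-6, dpy-9, glh-4, hach-1, hphd-1, ins-1, ins-6, nhr-260, ptr-23 and syp-2 did not (adjusted p 0.0522 to 0.0787). Single values in groups of 3 arrays were not screened for outliers.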

How the results depend on the processing

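The number of called probe sets in MT KO stayed within 1.5 times 5067 under every alternative run, from 4012 to 6025. A filter on low values gave 4335 of 11296 probe sets and centring arrays on their medians 6025. Leaving out single arrays gave 4012 to 5308, with 1968 to 2723 higher and 2005 to 2585 lower. The test of the difference between strains moved more. It called 1229 probe sets, 472 higher and 757 lower, against 1869 with array weights, 729 higher and 1140 lower, and 717 higher with centred arrays. Without single arrays it called 823 to 1384, with 281 to 528 higher and 542 to 878 lower. The number higher was 284 without MT KO without Cd replicate 2 and 281 without wild type with Cd replicate 1. The cause was not tested. With the replicate number as a block (replicate block) 5101 probe sets were called, 4707 of them in the same direction as without it. Deviations of same-numbered arrays correlated at 0.160, 0.0646 and 0.242, and the array of MT KO with Cd replicate 2 matched number 1 best, so the numbers were not taken as pairs. Germline genes called lower were 7 with that block, against 4.

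Genes that were not called changed sign in some fits. These were cua-1 with centred arrays (0.06) and without single arrays (−0.1302 to 0.1566), vit-5 with quantile normalization (−0.0032) and F46H5.3 with centred arrays (0.0319). The other was hsp-16.2 with the 3′ to 5′ control signal as a covariate (−0.0732) and without single arrays (−0.0954 to 0.2256). List medians of metallothioneins, zinc genes, C-type lectins, glycolysis and TCA cycle, ribosomal proteins, DNA damage response genes, intestine markers, antioxidants, ABC transporters and neprilysins changed sign in at least 1 alternative. Signals below the median of all values, 4.03, limit the folds of faint genes.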
